A study of Danio rerio with 72 samples.

Results

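BMAL1 (ENSDARG00000006791), CLOCK (ENSDARG00000011703) and npas2 (ENSDARG00000016536) encode activators of the circadian clock, and they were taken by these 3 identifiers from the 31902 entries of a zebrafish RNA-seq count table. All 3 passed the filter on low counts in every tissue. The table holds 72 libraries of SR4G fish, a transgenic line in which a destabilised green fluorescent protein (transcript d4EGFP) reports glucocorticoid receptor activity, and every group carries this transgene. From fertilisation to day 6 the water held either 54 ug/L of fluoxetine, an antidepressant that blocks serotonin reuptake, or 0.0053% ethanol, the vehicle. Larval heads were collected at 6 days in pools of 22, and hypothalamus and telencephalon at 6 months in pools of 5, so the adults had been out of the drug since larval life. Each tissue had 4 groups of 6 libraries: vehicle unstressed, vehicle stressed, fluoxetine unstressed and fluoxetine stressed. None of the stressor, the delay to sampling and the hour of the day at sampling is given in the sources used here. Whether sampling hour differed between groups was therefore not tested, and it cannot be told apart from stress or drug where it did.

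In the vertebrate clock, BMAL1 pairs with CLOCK, or with the CLOCK relative NPAS2, and the pair binds E-box sequences to switch on clock-controlled genes. Among those genes are the PER and CRY repressors, which act back on the pair, and the REV-ERB receptors (NR1D genes), which repress BMAL1 transcription while ROR receptors activate it. Transcripts of the activators and of most of their targets cycle through the day, in zebrafish in most tissues and in isolated cells as well as in the brain.

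Total counts per library ran from 10.2 to 22.8 M, and the genes tested numbered 20260 (larval heads), 18380 (hypothalamus) and 18367 (telencephalon). Levels are counts per M of the scaled library (CPM), and no value is scaled by gene length, so levels are compared between groups and not between genes. Ranges over the libraries of a group are given as a description. The share of all genes whose ranges were separate was not counted, so separate ranges carry no test. The stressed groups differed in a known glucocorticoid target and in the reporter: FKBP5, a receptor co-chaperone, had a mean of 63.2 CPM in unstressed and 819 CPM in stressed vehicle hypothalamus, and 64.3 and 582 CPM in fluoxetine hypothalamus. The reporter transcript d4EGFP had 30.4 and 99.8 CPM in the former pair of groups and 34.8 and 97.4 CPM in the latter. Against the region labels, the telencephalic gene TBR1 separated the regions (91.2 to 227.2 CPM in the telencephalon, 1.085 to 6.78 in the hypothalamus), and agrp was found in the hypothalamus (16.1 to 153.1 CPM) and was at most 0.563 CPM in the telencephalon. The preoptic gene oxt went the other way, with 33.5 to 441.5 CPM in the telencephalon and 1.03 to 128.3 CPM in the hypothalamus. In larval heads the vehicle unstressed replicates 1 to 3 stood apart from the rest, and in the hypothalamus the vehicle stressed replicates 1 and 4 did. Where leaving out these 5 libraries changed a call of the 3 activators, both values are given. Most other values are given only with them. Muscle, liver, photoreceptor, pituitary and cerebellum marker sums overlapped between the 4 groups of each tissue. In the hypothalamus the sum of 15 telencephalic markers was 341.8 to 473.2 CPM in vehicle unstressed and 187.1 to 344.7 CPM in vehicle stressed libraries. In the fluoxetine libraries of that region it was 249.3 to 391.5 CPM unstressed and 235.9 to 291.6 CPM stressed, and its part in the differences below was not tested. The sum of 16 hypothalamic markers, all detected in larval heads, did not overlap there between drug groups: it was 51.6 to 64.7 CPM in vehicle and 68.4 to 101 CPM in fluoxetine unstressed libraries, and 58.1 to 74.3 CPM and 74.6 to 98.4 CPM in stressed ones. This sum did not separate the adult regions. In vehicle unstressed libraries it was 357.6 to 472.6 CPM in the hypothalamus and 159.2 to 716.7 CPM in the telencephalon, where 3 of the 16 markers had no counts. In bulk tissue, fewer cells of a type and less RNA per cell cannot be told apart.

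In vehicle fish all 3 activators were called higher with stress in all 3 tissues. The shares of all tested genes that were higher in these comparisons were 5.82% (larval heads), 20.3% (hypothalamus) and 15% (telencephalon). The larval calls of BMAL1 and CLOCK did not hold without vehicle unstressed replicates 1 to 3, nor with only the compared groups in the fit. npas2 had the largest fitted difference of the 3 in each tissue, 14.8-fold higher in the hypothalamus and 6.51-fold higher in the telencephalon. In fish that had been raised in fluoxetine, npas2 was the only one of the 3 that passed the test for stress, again in every tissue. BMAL1 and CLOCK did not, although the lower telencephalic BMAL1 of stressed fluoxetine fish passed in fits with a block or covariate and the higher larval one with only the compared groups. The stress differences of BMAL1 and npas2 were smaller in fluoxetine than in vehicle fish in both adult regions by the test of the interaction, and those of CLOCK in the hypothalamus. The interaction of CLOCK did not pass with the replicate block. Over all genes the interaction called 0.511% in the hypothalamus and 0.8% in the telencephalon.

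**Figure D1:**
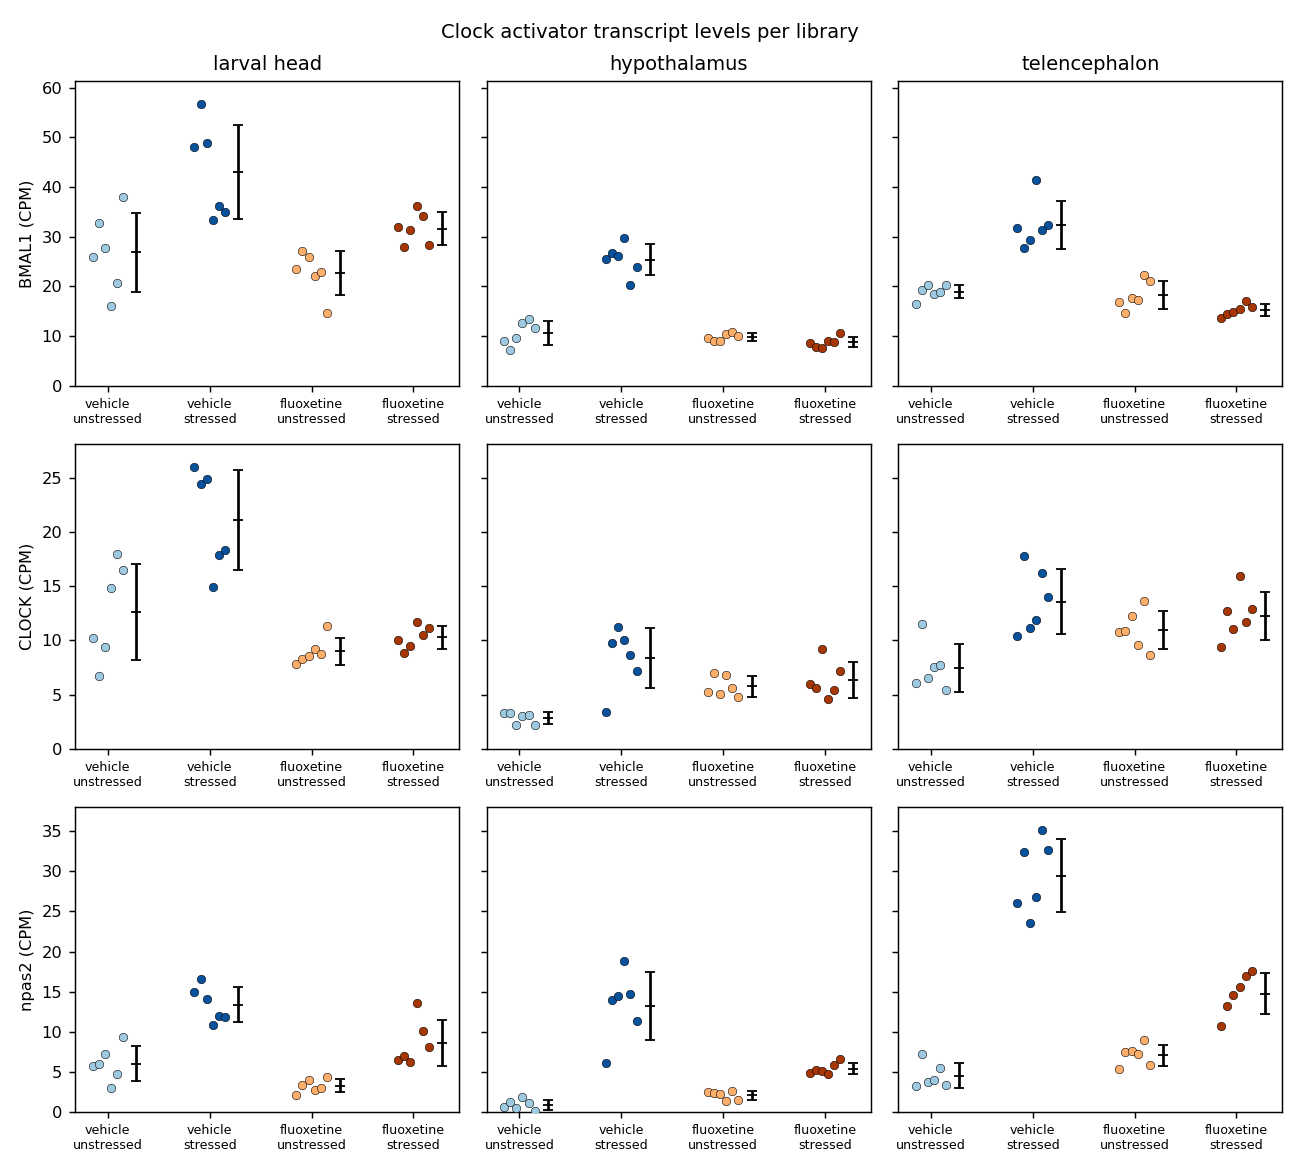
Level of each activator (rows) in each tissue (columns), in CPM on a linear axis from 0, with 1 point per library and the mean ± SD beside each group (n = 6). In the adult regions all vehicle stressed libraries lie above the vehicle unstressed ones for BMAL1 and npas2, whereas the fluoxetine stressed libraries all lie above the fluoxetine unstressed ones only for npas2.

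BMAL1 encodes a partner of both CLOCK and NPAS2. In vehicle hypothalamus it lay between 7.16 and 13.3 CPM without stress (median 10.6) and between 20.3 and 29.7 CPM with stress (median 25.8). Every stressed library was above every unstressed one, and the difference was 1.26 ± 0.13 on the log2 scale (SE; edgeR quasi-likelihood test, adjusted p = 9.5e-08). In vehicle telencephalon the unstressed libraries lay between 16.5 and 20.3 CPM (median 19.1) and the stressed ones between 27.7 and 41.4 CPM (median 31.5). These groups did not overlap either, with a difference of 0.77 ± 0.10 (adjusted p = 3.53e-06). The summed level of 15 telencephalic markers, all detected, was 1261 to 1471 CPM in the unstressed and 932.2 to 1081 CPM in the stressed vehicle libraries of that region. In the fluoxetine libraries of that region it was 1170 to 1394 CPM unstressed and 1015 to 1137 CPM stressed, also without overlap. The part of this sum in the stress differences of either drug group was not tested. In larval heads vehicle libraries lay between 15.99 and 38.1 CPM unstressed (median 26.8) and between 33.4 and 56.8 CPM stressed (median 42.1). Here the groups overlapped, and the difference of 0.68 ± 0.18 passed the test (adjusted p = 0.0121). Without the vehicle unstressed replicates 1 to 3 it was 0.78 and did not (adjusted p = 0.0671), nor did it with only the compared groups in the fit (adjusted p = 0.0871). The sum of 14 skeletal muscle markers, all detected, was 1173 to 7694 CPM in those unstressed heads and 299 to 3032 CPM in the stressed ones, and its part was not tested.

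With fluoxetine, the adult BMAL1 medians of stressed fish lay below those of unstressed fish. In the hypothalamus the fluoxetine unstressed libraries lay between 9.01 and 10.8 CPM (median 9.79) and the stressed ones between 7.64 and 10.5 CPM (median 8.68). In the telencephalon they lay between 14.6 and 22.2 CPM (median 17.5) and between 13.54 and 16.96 CPM (median 15.2). Both pairs of groups overlapped, and the stress differences of -0.17 ± 0.13 (95% interval -0.42 to 0.08, adjusted p = 0.454) and -0.27 ± 0.10 (-0.47 to -0.07, adjusted p = 0.0749) did not pass edgeR's test. The telencephalic one passed, as a fall, with the replicate block (adjusted p = 0.046), with the library number range as a term (adjusted p = 0.0356) and with the main axis of variation between libraries of the same group as a covariate (adjusted p = 0.0109). Of all genes, 3.6% were called higher and 2.89% lower with stress in fluoxetine hypothalamus, 6.35% and 7.26% in the telencephalon, and 1.9% and 0.439% in larval heads. The interaction, the stress difference in fluoxetine fish minus that in vehicle fish, was -1.43 ± 0.18 in the hypothalamus (adjusted p = 2.97e-05) and -1.04 ± 0.14 in the telencephalon (adjusted p = 0.000111), in comparisons that called 0.511% and 0.8% of all genes. In larval heads the fluoxetine libraries lay between 14.6 and 27.2 CPM unstressed (median 23.2) and between 27.9 and 36.3 CPM stressed (median 31.6). The ranges did not overlap, yet the difference of 0.48 ± 0.18 missed the threshold over all genes (adjusted p = 0.21; 0.0229 with only the compared groups in the fit), and the interaction was -0.20 ± 0.25 (95% interval -0.69 to 0.30, adjusted p = 0.717), in a comparison that called 0.133% of all genes.

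Read the other way, drug against vehicle, the adult BMAL1 difference lay among stressed fish. Fluoxetine stressed libraries were all below vehicle stressed ones, by -1.54 ± 0.13 in the hypothalamus (adjusted p = 1.13e-08) and by -1.09 ± 0.10 in the telencephalon (adjusted p = 8.79e-08). The shares of all genes called lower in these comparisons were 1.26% and 2.35%, and those called higher were 0.805% and 1.16%. Among unstressed adults the drug differences were -0.11 ± 0.13 (95% interval -0.36 to 0.14) and -0.05 ± 0.10 (-0.25 to 0.15), with adjusted p of 0.563 and 0.779. The larval values were -0.25 ± 0.18 unstressed (adjusted p = 0.353) and -0.44 ± 0.18 stressed (adjusted p = 0.155; 0.0332 with only the compared groups in the fit). These drug comparisons share their libraries with the stress comparisons above and are not independent of them.

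CLOCK encodes the usual partner of BMAL1. In the hypothalamus it was lowest in vehicle unstressed libraries, from 2.15 to 3.31 CPM (median 3.08), and lay between 3.40 and 11.2 CPM in vehicle stressed ones (median 9.19). The ranges did not overlap, and the difference was 1.56 ± 0.22 on the log2 scale (edgeR, adjusted p = 1.66e-05). Of the libraries that stood apart, replicate 1 held the lowest stressed value, 3.40 CPM, and replicate 4 held 10.1 CPM; without them the difference was 1.70 and passed. In the telencephalon the vehicle libraries lay between 5.42 and 11.5 CPM unstressed (median 7.02) and between 10.4 and 17.8 CPM stressed (median 12.9), with an overlap by 1 unstressed library and a difference of 0.86 ± 0.17 (adjusted p = 0.000618). In larval heads vehicle CLOCK lay between 6.73 and 17.96 CPM unstressed (median 12.6) and between 14.9 and 26.04 CPM stressed (median 21.4), a difference of 0.74 ± 0.19 (adjusted p = 0.0101). The unstressed larval replicates 1 to 3 held 10.2, 6.73 and 9.41 CPM and replicates 4 to 6 held 14.9, 17.96 and 16.5 CPM. Without the former the stress difference was 0.35 and did not pass (adjusted p = 0.334), nor did it with only the compared groups in the fit (adjusted p = 0.0979).

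In fluoxetine fish CLOCK did not pass the test for stress in any tissue. The stressed libraries held 4.60 to 9.21 CPM in the hypothalamus (median 5.80), against 4.78 to 6.95 CPM unstressed, and 9.35 to 15.9 CPM in the telencephalon (median 12.2), against 8.64 to 13.6 CPM. The stress differences were 0.19 ± 0.19 in larval heads (95% interval -0.19 to 0.56), 0.14 ± 0.21 in the hypothalamus (-0.28 to 0.55) and 0.16 ± 0.17 in the telencephalon (-0.17 to 0.49), and the groups overlapped in all 3. Their adjusted p were 0.778, 0.736 and 0.556. The interaction passed in the hypothalamus (-1.42 ± 0.30, adjusted p = 0.0244) and neither in the telencephalon (-0.70 ± 0.24, 95% interval -1.16 to -0.23, adjusted p = 0.175) nor in larval heads (-0.55 ± 0.27, -1.08 to -0.03, adjusted p = 0.331). With the replicate block the hypothalamic interaction was -1.38 and did not pass.

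CLOCK also differed between drug and vehicle among unstressed adults. In the hypothalamus the fluoxetine unstressed libraries held 4.78 to 6.95 CPM (median 5.45), all above the vehicle unstressed ones, a difference of 1.02 ± 0.22 (adjusted p = 0.00328), and 16.5% of all genes were higher in this comparison. In the telencephalon they held 8.64 to 13.6 CPM (median 10.8), a difference of 0.55 ± 0.17 with overlapping ranges (adjusted p = 0.0461), beside 4.88% of all genes. With only the compared groups in the fit, or with no filter, this call was lost (adjusted p = 0.0764 and 0.0624). The shares of all genes that were lower were 7.89% and 2.93%. Among stressed adults the drug differences were -0.40 ± 0.21 and -0.15 ± 0.17 (95% intervals -0.81 to 0.01 and -0.47 to 0.18), and neither passed (adjusted p = 0.349 and 0.65). In larval heads, with 7.83 to 11.3 CPM in fluoxetine unstressed libraries (median 8.63), the drug difference was -0.48 ± 0.19 unstressed (adjusted p = 0.0893) and -1.04 ± 0.19 stressed (adjusted p = 0.00389). Without vehicle unstressed replicates 1 to 3 the unstressed difference was -0.87 and passed (adjusted p = 0.00317), and it passed with the main axis of within-group variation as a covariate (-0.63, adjusted p = 0.00625). The sum of hypothalamic markers given above also separated the larval drug groups, and its part in these differences was not tested. The fluoxetine stressed larval libraries, at 8.79 to 11.7 CPM (median 10.3), all lay below the vehicle stressed ones, in a comparison in which 1.88% of all genes were higher and 3.32% lower.

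The level of CLOCK also followed the main axis of variation between libraries of the same group. Over 24 libraries, after subtracting group means, the correlation with that axis was 0.745 in larval heads and 0.736 in the hypothalamus, where the axis held 53.8% and 24.9% of the within-group variance, and 0.00223 in the telencephalon. For BMAL1 it was -0.106, 0.295 and -0.624, and for npas2 -0.251, 0.628 and -0.0549. The direction of the axis is arbitrary, and in each tissue it was set so that the correlation with CLOCK was positive. In the telencephalon it rests on 0.00223, so the signs of correlations and scores there can be read only relative to each other. The score on the axis also differed between groups, with overlapping ranges. Its median was -1.27 in vehicle unstressed larval heads, against 0.111 to 0.469 in the other larval groups. In the hypothalamus these medians were -1.13 and 0.254 to 0.56, and in the telencephalon -0.406 and 0.124 to 0.987. The axis therefore cannot be fully told apart from differences that involve the vehicle unstressed group. With the axis as a covariate, a setting chosen after seeing the data, the hypothalamic drug difference of CLOCK in unstressed fish was 0.61 and its larval stress difference in vehicle fish 0.47, neither of which passed (adjusted p = 0.0516 and 0.0525). The telencephalic drug difference of CLOCK in unstressed fish (0.55, adjusted p = 0.062) and the hypothalamic one of npas2 (0.77, adjusted p = 0.126) did not pass with it either.

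npas2 encodes the relative of CLOCK that can replace it as the partner of BMAL1. In vehicle unstressed hypothalamus it was close to the limit of detection, with 1 to 28 counts per library (0.0581 to 1.83 CPM, median 0.899). In vehicle stressed hypothalamus it lay between 6.04 and 18.9 CPM (median 14.2), above every unstressed library. The difference was 3.88 ± 0.36 on the log2 scale (edgeR, adjusted p = 3.19e-08), and a fold from so low a base depends on few counts. In the telencephalon the vehicle libraries went from 3.20 to 7.24 CPM (median 3.86) without stress to 23.6 to 35.2 CPM (median 29.6) with stress, a difference of 2.70 ± 0.18 (adjusted p = 2.8e-11) with no overlap. In larval heads they went from 2.97 to 9.39 CPM (median 5.80) to 10.9 to 16.6 CPM (median 13), also without overlap, a difference of 1.16 ± 0.23 (adjusted p = 0.00215).

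In fluoxetine fish the npas2 ranges of stressed and unstressed libraries were likewise separate in each tissue, while the adult differences were smaller. In the hypothalamus npas2 lay between 1.29 and 2.60 CPM unstressed (median 2.29) and between 4.65 and 6.58 CPM stressed (median 5.19), a difference of 1.38 ± 0.32 (adjusted p = 0.0106). In the telencephalon it lay between 5.35 and 8.96 CPM (median 7.36) and between 10.7 and 17.6 CPM (median 15.02), a difference of 1.06 ± 0.17 (adjusted p = 0.000157). The interaction was -2.502 ± 0.48 in the hypothalamus (adjusted p = 0.00813) and -1.65 ± 0.25 in the telencephalon (adjusted p = 0.000334). In larval heads, fluoxetine libraries went from 2.11 to 4.30 CPM (median 3.16) to 6.27 to 13.6 CPM (median 7.50). That difference of 1.39 ± 0.24 (adjusted p = 0.000979) was close to the one in vehicle larvae, and the interaction was 0.24 ± 0.33 (95% interval -0.40 to 0.88, adjusted p = 0.736).

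The smaller adult npas2 difference in fluoxetine fish came with a higher level before stress and a lower one after it. Against vehicle, unstressed fluoxetine fish were higher by 1.20 ± 0.37 in the hypothalamus (adjusted p = 0.0204) and by 0.65 ± 0.18 in the telencephalon (adjusted p = 0.0338), with overlapping ranges in both. Both calls were lost with only the compared groups in the fit (adjusted p = 0.0553 and 0.0779), and the hypothalamic value fell to 0.77 with the axis as a covariate. Stressed fluoxetine fish were lower, by -1.30 ± 0.31 in the hypothalamus (adjusted p = 0.0224), where the ranges overlapped, and by -1.0 ± 0.17 in the telencephalon (adjusted p = 0.000701), where they did not. In larval heads npas2 was lower with fluoxetine without stress (-0.88 ± 0.24, adjusted p = 0.0251, where 3.55% of all genes were higher and 7.26% lower). That call was lost without vehicle unstressed replicates 1 to 3 (-0.81, adjusted p = 0.107), with the replicate block (adjusted p = 0.0612) and with only the compared groups in the fit (adjusted p = 0.16). The stressed difference of -0.64 ± 0.23 did not pass (adjusted p = 0.101), and did with only the compared groups (adjusted p = 0.025) or with the axis (adjusted p = 0.0341). The part of the hypothalamic marker sum in these larval differences was not tested.

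**Figure D2:**
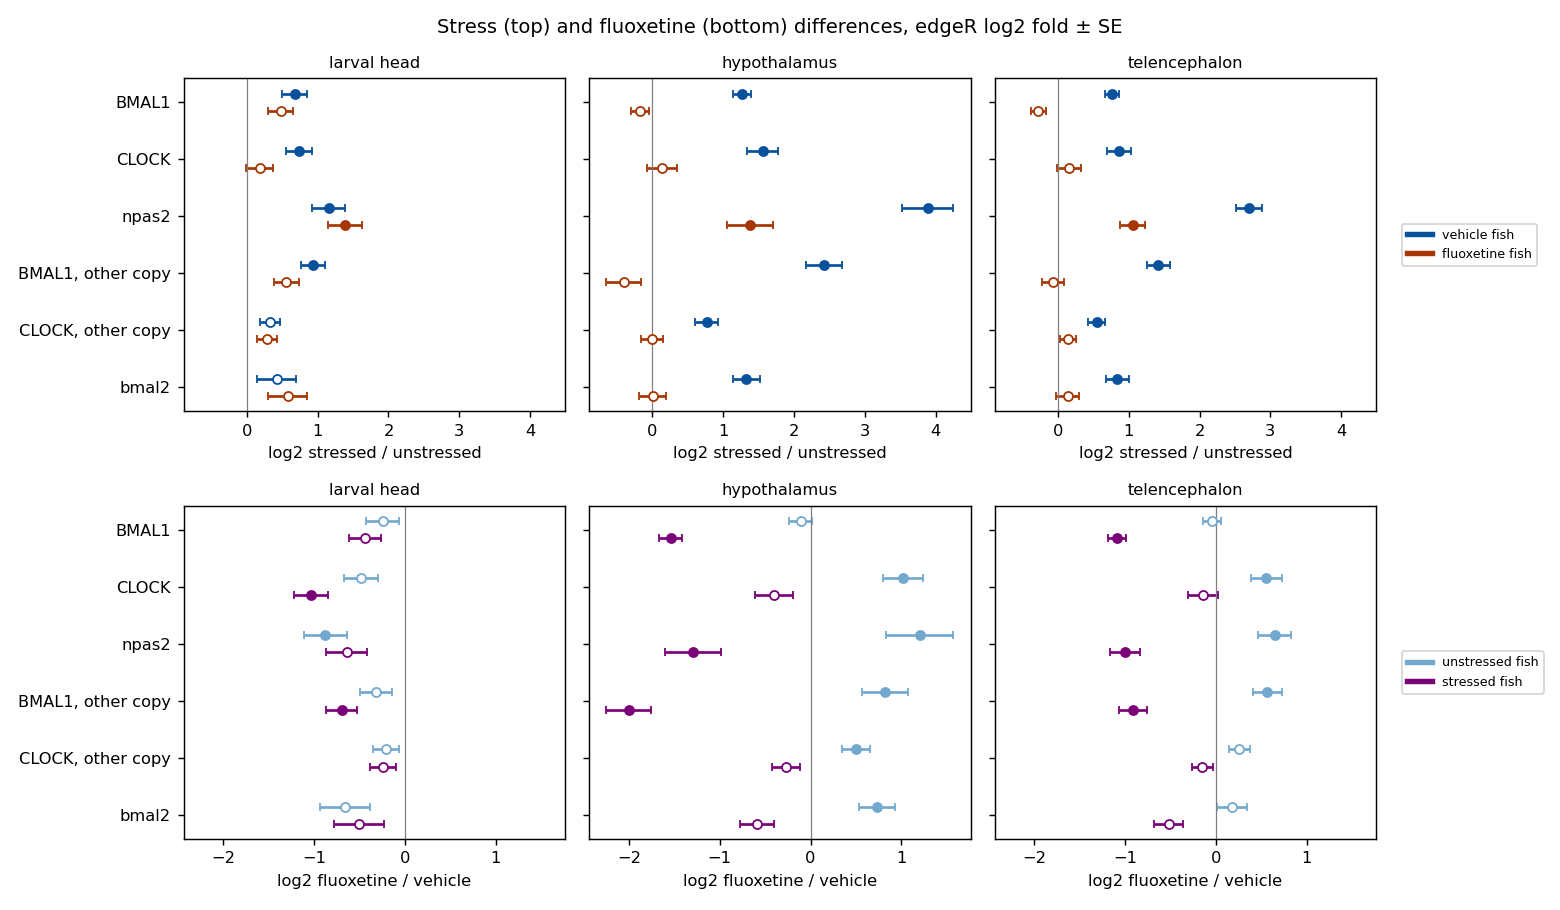
Fitted log2 differences ± SE of the 3 activators and of the other BMAL and CLOCK entries, for stressed against unstressed fish (top, vehicle and fluoxetine fish) and fluoxetine against vehicle fish (bottom, unstressed and stressed fish), by tissue. Filled points passed an adjusted p of 0.05 and open points did not; in the hypothalamus and telencephalon only npas2 has a filled point for stress in fluoxetine fish.

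Plotted against each other library by library, BMAL1 and npas2 separated the adult groups in different directions. The vehicle stressed libraries of both regions were high in both transcripts. The fluoxetine stressed libraries were intermediate in npas2, with a range that overlapped that of vehicle stressed libraries in the hypothalamus. In BMAL1 they were at the low end, where they overlapped both unstressed groups of their region. Over all 72 libraries, after subtracting tissue means, BMAL1 and npas2 had r = 0.614, CLOCK and npas2 r = 0.770 and BMAL1 and CLOCK r = 0.403. With group means also subtracted these values were 0.216, 0.478 and -0.061. The correlations describe libraries that share depth and group differences, and carry no test.

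**Figure D3:**
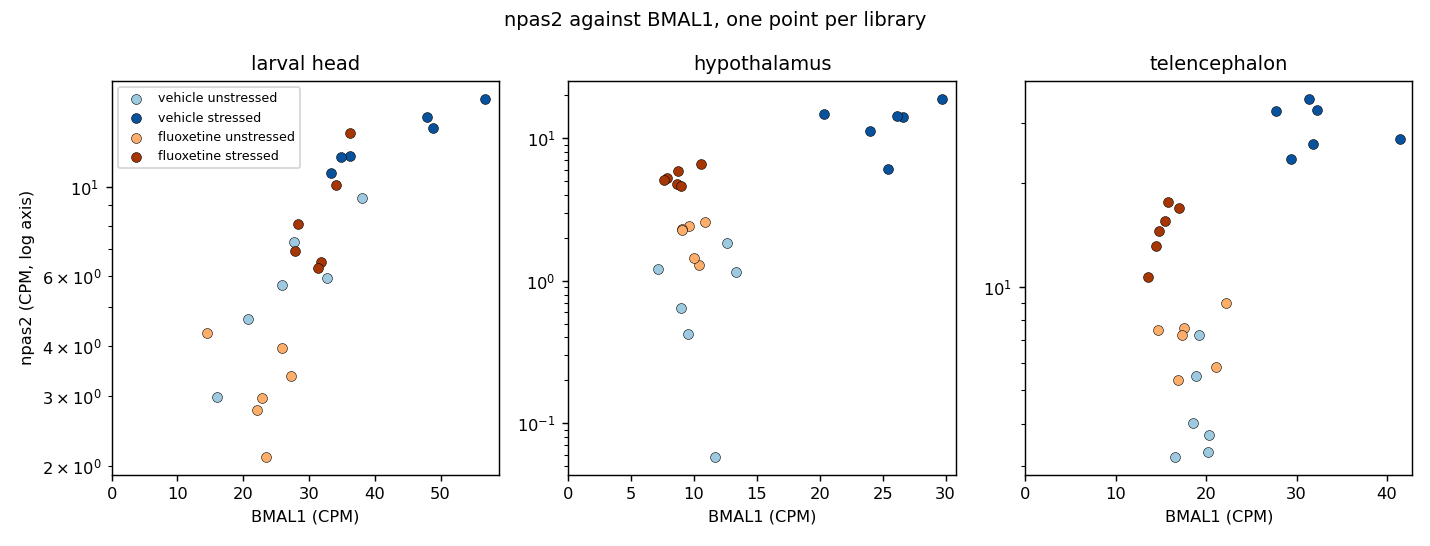
Level of npas2 (CPM, log axis) against BMAL1 (CPM, linear axis), 1 point per library and 1 panel per tissue, coloured by group. In both adult regions the 6 vehicle stressed libraries stand to the right at 20.3 CPM of BMAL1 or more, and the 6 fluoxetine stressed libraries lie to the left at 16.96 CPM or less. Both unstressed groups overlap the fluoxetine stressed one in BMAL1 in each region, and fluoxetine unstressed telencephalon reaches 22.2 CPM.

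Among adult libraries, 2 ranges of library numbers in the labels (1 to 24 and 25 to 48) each hold 3 replicates of every group, and the comparisons were repeated within each. The vehicle stress difference of BMAL1 was 1.59 and 0.98 in the hypothalamus and 0.66 and 0.86 in the telencephalon, and that of npas2 was 3.86 and 3.90 and then 2.52 and 2.87, and all 8 passed edgeR's test. For CLOCK the values were 1.46 and 1.65, and 0.70 and 1.01, of which the telencephalic one in the lower range did not pass (adjusted p = 0.122). Over all genes this comparison called 1645 of 18290 and 3695 of 18625 in the hypothalamus, and 1565 of 18427 and 2325 of 18421 in the telencephalon. The drug difference of BMAL1 in stressed fish was -1.70 and -1.38, and -1.04 and -1.12, and all 4 passed. That of npas2 was -1.19 and -1.38, and -1.09 and -0.92, and none of the 4 passed (adjusted p = 0.124, 0.67, 0.0753 and 0.0806). The genes called for the drug in stressed fish numbered 180 and 32 in the hypothalamus, and 175 and 49 in the telencephalon. In unstressed fish the drug difference of CLOCK was 0.96 and 1.07, and 0.49 and 0.61, of which none passed, and that of npas2 was 1.56 and 0.84, and 0.52 and 0.76, of which the first passed (adjusted p = 0.0399). For the drug in unstressed fish 2292 and 1 of all genes were called in the hypothalamus, and 0 and 5 in the telencephalon. The BMAL1 interaction was -1.79 (adjusted p = 0.000711) and -1.12 (adjusted p = 0.229) in the hypothalamus, and -0.85 (adjusted p = 0.052) and -1.18 (adjusted p = 0.0452) in the telencephalon. The npas2 interaction was -2.75 and -2.22, and -1.61 and -1.68, and only the last passed (adjusted p = 0.0441). Interactions called over all genes numbered 35 and 7 in the hypothalamus, and 36 and 18 in the telencephalon. For npas2 and stress in fluoxetine fish the values were 1.11 and 1.68 in the hypothalamus and 0.91 and 1.19 in the telencephalon, of which only the last passed (adjusted p = 0.0049). Beside it, 349 and 88 of all genes were called in the hypothalamus, and 609 and 674 in the telencephalon. For CLOCK the hypothalamic interaction was -1.18 and -1.65 and neither passed. With the range as a term, BMAL1 was 0.19 ± 0.06 higher in the upper range in the telencephalon (adjusted p = 0.0331). All larval libraries fall outside these ranges.

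Among unstressed vehicle groups, the 3 activators were lowest in the hypothalamus. In one fit of all 72 libraries, unstressed vehicle hypothalamus was below telencephalon by -0.79 ± 0.14 for BMAL1 (edgeR, adjusted p = 4.05e-06), by -1.34 ± 0.21 for CLOCK (adjusted p = 3.52e-07) and by -2.28 ± 0.29 for npas2 (adjusted p = 2.18e-09), in a comparison in which 16.9% of all genes were lower. Larval heads were above the mean of the adult regions by 0.79 ± 0.12, 1.32 ± 0.17 and 1.44 ± 0.22 (adjusted p = 7.18e-09, 1.07e-10 and 2.96e-08). This is a comparison of ages and of whole heads with brain regions, in which 46.6% of all genes were higher and the median of all genes was 0.24. Summed markers of skeletal muscle reached 1173 to 7694 CPM in vehicle unstressed larval heads and 8.18 to 185.8 CPM in the adult regions of that group, and their part in the difference was not tested.

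Whether the stress difference itself differed between tissues was tested in the same fit. In vehicle fish that of npas2 was smaller in larval heads than in the adult regions by -2.12 ± 0.31 (adjusted p = 5.02e-07), where 33.4% of all genes were called. The corresponding values were -0.32 ± 0.17 for BMAL1 (adjusted p = 0.124) and -0.46 ± 0.24 for CLOCK (adjusted p = 0.127). Without the 5 libraries that stood apart the CLOCK value was -0.87 and passed (adjusted p = 0.0036). In fluoxetine fish the difference of BMAL1 was larger in larval heads by 0.70 ± 0.17 (adjusted p = 0.00681, beside 4.31% of all genes), and those of CLOCK (0.04 ± 0.24, adjusted p = 0.961) and npas2 (0.17 ± 0.31, adjusted p = 0.807) did not pass. No activator differed in its stress response between hypothalamus and telencephalon by this test. The vehicle values were 0.52 ± 0.19, 0.72 ± 0.29 and 1.20 ± 0.38 (95% intervals 0.14 to 0.90, 0.16 to 1.28 and 0.46 to 1.94; adjusted p = 0.427, 0.509 and 0.271), and only 0.23% of all genes were called. That fit left the regions unpaired. With a block of paired regions, chosen after seeing the data, 234 genes were called in place of 49, and no activator passed. The fluoxetine values were 0.12 ± 0.20, -0.01 ± 0.28 and 0.34 ± 0.35, all with an adjusted p of 1, beside 0.174% of all genes.

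Ordered by mean over the 12 groups on the scale of that fit, BMAL1 ran from 40.9 ± 8.83 CPM in vehicle stressed larval heads, through 32.5 ± 4.67 CPM in vehicle stressed telencephalon, to 9.22 ± 1.11 CPM (SD, n = 6) in fluoxetine stressed hypothalamus. Every neighbouring pair of groups in that order overlapped in range. CLOCK ran from 20.1 ± 4.39 CPM in vehicle stressed larval heads to 2.99 ± 0.57 CPM in vehicle unstressed hypothalamus, which did not overlap the next group above it, fluoxetine unstressed hypothalamus at 6.00 ± 0.98 CPM. npas2 was highest in vehicle stressed telencephalon at 29.7 ± 4.73 CPM, above all libraries of the next group, fluoxetine stressed telencephalon at 14.9 ± 2.58 CPM. It ended at 0.929 ± 0.66 CPM in vehicle unstressed hypothalamus. All other neighbours in the CLOCK and npas2 orders overlapped.

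Zebrafish carry further copies of these activators, and reads could split between near-identical copies. The second entry named BMAL1 (ENSDARG00000035732) had the same calls for stress as the first in each tissue and drug group. In vehicle hypothalamus it lay between 0.705 and 2.36 CPM unstressed (median 1.44) and between 5.14 and 12.5 CPM stressed (median 7.49), a difference of 2.42 ± 0.25 on the log2 scale (edgeR, adjusted p = 1.96e-07). In the telencephalon the stress difference was 1.42 ± 0.16 and in larval heads 0.94 ± 0.17 (adjusted p = 3.09e-07 and 0.00112). In fluoxetine fish the values were -0.40 ± 0.24, -0.06 ± 0.16 and 0.56 ± 0.17, of which none passed (adjusted p = 0.341, 0.836 and 0.102), and the interaction was -2.82 ± 0.35 in the hypothalamus (adjusted p = 2.97e-05) and -1.48 ± 0.22 in the telencephalon (adjusted p = 0.000359). In unstressed adults it was called higher with fluoxetine, by 0.82 ± 0.25 in the hypothalamus (adjusted p = 0.0223) and by 0.56 ± 0.16 in the telencephalon (adjusted p = 0.0357). In stressed larval heads it was called lower with fluoxetine (-0.70 ± 0.17, adjusted p = 0.0214). The first entry was called in none of these comparisons in the main fit, and the difference between the entries was not tested.

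The second entry named CLOCK (ENSDARG00000003631) rose with stress in vehicle hypothalamus by 0.77 ± 0.16 and in vehicle telencephalon by 0.55 ± 0.12 on the log2 scale (edgeR, adjusted p = 0.000766 and 0.0015), and not in larval heads (0.33 ± 0.14, adjusted p = 0.101). In fluoxetine fish its stress differences were 0.29 ± 0.14, 0.00 ± 0.15 and 0.14 ± 0.12 in larval heads, hypothalamus and telencephalon, and none passed (adjusted p = 0.398, 0.999 and 0.441). It was higher with fluoxetine in unstressed hypothalamus by 0.50 ± 0.16 (adjusted p = 0.0224). Its interactions, -0.77 ± 0.22 in the hypothalamus and -0.41 ± 0.17 in the telencephalon, did not pass (adjusted p = 0.128 and 0.296). bmal2 (ENSDARG00000041381), a relative of BMAL1, rose with stress in vehicle hypothalamus by 1.33 ± 0.20 and in vehicle telencephalon by 0.84 ± 0.16 (adjusted p = 2.74e-05 and 0.000466), from medians of 1.26 and 3.08 CPM to 2.77 and 5.57 CPM. In fluoxetine fish its values there were 0.01 ± 0.19 and 0.14 ± 0.16 (adjusted p = 0.986 and 0.601). Its interaction passed in the hypothalamus (-1.32 ± 0.27, adjusted p = 0.0168). Unstressed hypothalamus was higher in bmal2 with fluoxetine by 0.73 ± 0.20 (adjusted p = 0.0107). Its stress difference in vehicle larval heads was 0.42 ± 0.27 and did not pass (adjusted p = 0.267).

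The other genes of the loop were read from a list of 48 entries, 47 of which were tested. In vehicle fish 20 rose and 0 fell with stress in larval heads, 21 rose and 15 fell in the hypothalamus, and 22 rose and 12 fell in the telencephalon. The list medians were 0.50, 0.15 and 0.28 on the log2 scale, and those of all genes -0.03, -0.01 and -0.00. Of all genes, 5.82% rose and 15.4% fell in larval heads, 20.3% and 16.5% in the hypothalamus, and 15% and 11.8% in the telencephalon. In fluoxetine fish 13 rose and 0 fell, 8 rose and 1 fell, and 14 rose and 4 fell, with medians of 0.29, -0.03 and 0.01, beside 1.9% and 0.439%, 3.6% and 2.89%, and 6.35% and 7.26% of all genes. Against vehicle, fluoxetine stressed fish had 1 gene higher and 6 lower in larval heads, 15 higher and 9 lower in the hypothalamus, and 12 higher and 9 lower in the telencephalon, with medians of -0.00, 0.11 and 0.03. The shares of all genes higher and lower there were 1.88% and 3.32%, 0.805% and 1.26%, and 1.16% and 2.35%. Unstressed fluoxetine fish had 1 higher and 1 lower, 18 higher and 2 lower, and 8 higher and 2 lower, with medians of 0.16, 0.14 and 0.14, and of all genes 3.55% were higher and 7.26% lower, 16.5% and 7.89%, and 4.88% and 2.93%.

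Of 14 repressors, 7 rose and 0 fell with stress in vehicle larval heads, 5 rose and 6 fell in vehicle hypothalamus, and 6 rose and 6 fell in vehicle telencephalon. cry3b, a cryptochrome gene, had the pattern of BMAL1 in the hypothalamus, where it went from 5.82 to 9.06 CPM (median 6.64) in vehicle unstressed to 31.99 to 38.7 CPM (median 34.9) in vehicle stressed libraries, and was 4.30 to 6.41 CPM (median 4.95) in fluoxetine stressed ones. Its stress difference in vehicle fish was 2.32 ± 0.13 and its drug difference in stressed fish -2.74 ± 0.14 on the log2 scale (edgeR, adjusted p = 9.64e-12 and 5.76e-13). ciarta, whose mouse relative represses the BMAL1 and CLOCK pair, went the opposite way in the telencephalon, where fluoxetine stressed fish exceeded vehicle stressed fish by 1.44 ± 0.08 (adjusted p = 3.07e-12). BHLHE41, which competes for E-boxes, fell with stress in vehicle telencephalon by 1.41 on the log2 scale (SE 0.08, adjusted p = 7.16e-13). PER2, a light-inducible gene in zebrafish, rose with stress in both drug groups: by 1.57 ± 0.23 and 3.30 ± 0.24 in vehicle and fluoxetine larval heads, by 1.19 ± 0.09 and 0.77 ± 0.09 in the hypothalamus, and by 1.25 ± 0.08 and 1.12 ± 0.07 in the telencephalon, the largest adjusted p of the 6 being 7.44e-05.

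Of 11 ROR and REV-ERB receptors, 4 rose and 0 fell with stress in vehicle larval heads, 4 rose and 5 fell in the hypothalamus, and 3 rose and 3 fell in the telencephalon. NR1D1, the REV-ERB alpha gene, fell in vehicle telencephalon by 1.58 on the log2 scale (SE 0.10, edgeR, adjusted p = 1.63e-11), from a median of 103.2 to 33.6 CPM. Fluoxetine stressed fish were higher than vehicle stressed fish by 1.74 ± 0.10 in that region (adjusted p = 1.97e-11) and by 1.77 ± 0.15 in the hypothalamus (adjusted p = 1.13e-08). In both adult regions NR1D1 was lowest in the vehicle stressed group, in which BMAL1 was highest. The correlation between them was -0.849 in the hypothalamus, -0.867 in the telencephalon and 0.097 in larval heads. With group means subtracted it was 0.069 over the 72 libraries, and a link between them was not tested. nr1d4b fell in vehicle hypothalamus by 2.64 (SE 0.26, adjusted p = 8.81e-08). nr1d2a, another REV-ERB gene, rose with stress in vehicle and in fluoxetine fish alike, by 1.99 ± 0.16 and 1.52 ± 0.16 in the hypothalamus and by 2.08 ± 0.16 and 1.89 ± 0.16 in the telencephalon (adjusted p = 3.35e-09, 6.58e-07, 3.21e-10 and 3.28e-09).

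Of 9 genes for clock kinases and protein turnover, 4 rose and 0 fell with stress in vehicle larval heads, 4 rose and 2 fell in the hypothalamus, and 5 rose and 2 fell in the telencephalon. USP2, a deubiquitinase, rose in vehicle fish by 1.11 ± 0.09, 1.138 ± 0.09 and 1.56 ± 0.08 on the log2 scale in larval heads, hypothalamus and telencephalon, and in fluoxetine fish by 0.91 ± 0.09, 0.94 ± 0.09 and 1.20 ± 0.08 (all 6 past edgeR's threshold, the largest adjusted p being 1.42e-06). Of 11 output genes, 10 were tested, of which 4 rose in vehicle larval heads, 5 rose and 2 fell in the hypothalamus, and 5 rose and 1 fell in the telencephalon. For every role the shares of all genes are those given above for the whole list. They were 5.82% higher and 15.4% lower in larval heads, 20.3% and 16.5% in the hypothalamus, and 15% and 11.8% in the telencephalon. nfil3-6, a repressor at D-box elements, rose in vehicle fish by 2.51 ± 0.25, 1.99 ± 0.16 and 2.36 ± 0.10 and in fluoxetine fish by 2.06 ± 0.24, 1.32 ± 0.16 and 1.76 ± 0.10. The D-box activator gene dbpb fell with stress in vehicle hypothalamus by 1.89 (SE 0.17, adjusted p = 1.25e-08) and was higher in fluoxetine than in vehicle stressed fish there by 1.34 ± 0.17 (adjusted p = 1.09e-05).

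Between unstressed groups, fluoxetine hypothalamus was higher in RORB, a receptor at ROR elements, by 1.84 ± 0.48, in HLF, a D-box activator, by 1.38 ± 0.26 and in gsk3bb, a kinase gene, by 1.07 ± 0.27 (edgeR, adjusted p = 0.00905, 0.0021 and 0.00695). aanat2, whose product makes the melatonin precursor in the pineal, was lower by -3.22 ± 0.92 (adjusted p = 0.0143), with 0.116 to 11.5 CPM in vehicle and 0.172 to 0.527 CPM in fluoxetine libraries. The sum of 15 pineal and photoreceptor markers was 33.2 to 833.1 CPM and 53.2 to 178.1 CPM in the same groups, and its part in that difference was not tested. Over all genes this hypothalamic comparison called 4478, against 1185 with the main within-group axis as a covariate and 1 among library numbers 25 to 48. With group means subtracted, r with CLOCK was 0.64 for RORB, 0.73 for HLF and 0.55 for gsk3bb. How the values of these genes moved in those fits is not given here. In stressed larval heads, in which CLOCK was lower with fluoxetine, rorca was lower by -1.16 ± 0.19 and nfil3-5 by -1.36 ± 0.24 (adjusted p = 0.00145 and 0.00261).

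**Figure D4:**
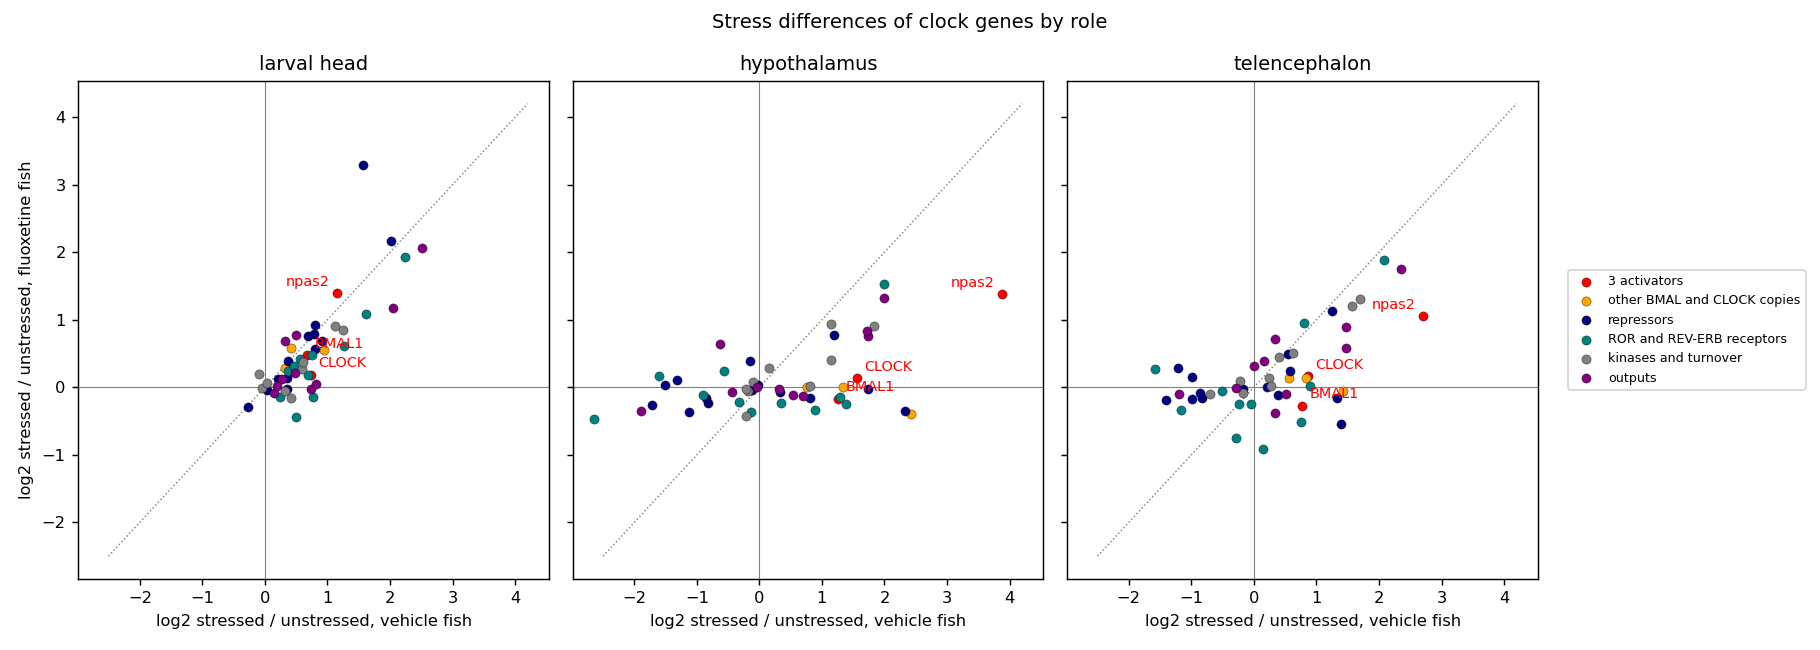
Log2 stress difference in fluoxetine fish against that in vehicle fish for each clock gene, 1 panel per tissue, coloured by role, with the 3 activators labelled and a dotted line where both differences are equal. The 2 axes share no library; in the adult regions BMAL1 and CLOCK lie between -0.27 and 0.16 on the fluoxetine axis, and npas2 is positive on both axes and below the line.

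Genes whose pattern over the 72 libraries was most like each activator were named by the correlation of log2 CPM after subtracting tissue means, over 17418 other genes. For BMAL1 the nearest were cry3b (r = 0.836), cry4 (0.819), the second BMAL1 entry (0.817, ENSDARG00000035732), ENSDARG00000092354 (0.816) and cry3a (0.802), and the farthest were cipca (-0.786) and si:ch211-132b12.7 (-0.739). For CLOCK they were numbl (0.912), si:ch73-49p17.1 (0.876), IGF1R (0.873), lrrfip1b (0.873) and ACAP3 (0.871), and at the other end atp5meb (-0.833) and senp3a (-0.782). For npas2 they were klf13 (0.870), STK40 (0.856), vps37bb (0.855), SLC43A2 (0.853) and CSDC2 (0.851), and at the other end FBXO25 (-0.848) and znf800b (-0.841). Of the 5 nearest to BMAL1, 4 are members of the clock list, and none of those nearest to CLOCK or npas2 is. The list holds 48 entries beside the 3 activators, against 17418 genes compared. It was chosen with earlier results of these data known, so this count carries no test. With group means also subtracted, r with BMAL1 was 0.12 for cry3b, 0.36 for cry4 and -0.017 for cry3a. It was 0.42 for the second BMAL1 entry and 0.61 for ENSDARG00000092354. For the 5 nearest to CLOCK it was 0.70 to 0.84, and for those nearest to npas2 0.51 to 0.60. With rank correlations 2, 2 and 3 of the 5 nearest stayed the same.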

How the data were processed

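The authors deposited 1 table of raw read counts (whole numbers, not normalized), with 1 column for each of 72 libraries. Per the labels' protocols, libraries were made from column-extracted RNA with a stranded mRNA kit. Per the submitters' processing notes, bcl2fastq 2.17.1.14, cutadapt, STAR 2.5 and DESeq2 were used. None of the counting program, its strand setting and the genome build is given in the sources used here, so reads of overlapping genes and close copies may be shared. Of 31901 Ensembl identifiers, 29178 matched a symbol.

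Each tissue (24 libraries, 4 groups) was fitted in edgeR 4.0.16 (R 4.3.3) with TMM scaling, default filterByExpr and robust quasi-likelihood F-tests, with 5 comparisons per tissue. Comparisons between tissues (6) came from one fit of all 72 libraries, in which 21297 genes were tested. SE is the log2 difference divided by the square root of F, and intervals are at 95%, from the normal quantile times SE. They are therefore somewhat narrower than the F-test implies. For the larval CLOCK interaction, with an interval of -1.08 to -0.03, the unadjusted p of the F-test was 0.051. P-values were adjusted by Benjamini and Hochberg over all genes tested, with a threshold of 0.05. The correlations used log2 CPM with a prior count of 2. The fit was tested on simulated data. Alternatives were DESeq2 1.42.0, RLE scaling, no filter, only the groups compared, a replicate block, the library number range, and leaving out libraries that stood apart.

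The 3 members and the gene lists were chosen with earlier results of these data known. The 3 members are named in each comparison, while not every comparison of the other BMAL and CLOCK copies is given. Of each role at most 2 genes with the largest called difference per comparison are named, some of them followed into other comparisons. Each library is a pool, and the labels do not say whether pools came from separate tanks or clutches, so p-values measure the spread between pools. The smallest difference between libraries of a group was 4.88 times the counting variance, so none was a duplicate. As a check of pairing, deviations of same-numbered libraries from their group means were correlated. All correlations exceeded 0.1 for 0 of 6 group pairs in each tissue and for 2 of 4 between hypothalamus and telencephalon, so a block of paired regions was tried. Promoter sequences were not analysed here. The level of 1 regional marker gene is not reported here.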

Additional observations from a re-analysis of the deposited data

Results flagged for a closer look

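In 1 group a single library stood apart from the others. BMAL1 in vehicle stressed telencephalon was 41.4 CPM in replicate 4, with 32.3 CPM as the next and 27.7 CPM as the lowest value; Dixon's test flags about 1 group in 20 by chance, and 72 groups were tested.

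In the following the stress difference itself differed between drug groups by the interaction in edgeR. For BMAL1 the difference of differences on the log2 scale was -1.43 in the hypothalamus and -1.04 in the telencephalon, for CLOCK -1.42 in the hypothalamus, and for npas2 -2.502 in the hypothalamus and -1.65 in the telencephalon. For the second BMAL1 entry (ENSDARG00000035732) it was -2.82 and -1.48, and for bmal2 -1.32 in the hypothalamus. Over all genes the interaction called 0.511% in the hypothalamus and 0.8% in the telencephalon. That of CLOCK did not pass with the replicate block.

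Between larval heads and adult regions the stress difference in vehicle fish differed by -2.12 for npas2, by -0.97 for the second BMAL1 entry and by -0.64 for bmal2, which was 0.16 without the 5 libraries that stood apart. In fluoxetine fish it differed by 0.70 for BMAL1 and by 0.79 for the second BMAL1 entry. These comparisons called 33.4% of all genes in vehicle fish, where the median of all genes was -0.13, and 4.31% in fluoxetine fish. Without those 5 libraries the vehicle comparison called 3688 genes in place of 7113.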

How the results depend on the processing

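Of the values of the 3 activators recomputed under the alternatives, 374 kept their direction and their side of the threshold, 16 no longer passed, 10 newly passed and 2 changed sign; the cause was not tested. All values are log2 differences. With only the groups compared, the larval BMAL1 stress difference in vehicle fish (0.69), the larval CLOCK one (0.75), the telencephalic drug differences in unstressed fish of CLOCK (0.55) and npas2 (0.64), and those of npas2 in the hypothalamus (1.21) and larval heads (-0.88) no longer passed, whereas larval BMAL1 for stress in fluoxetine fish (0.49) and for the drug in stressed fish (-0.45), and larval npas2 for the drug in stressed fish (-0.66), newly did. Without larval vehicle unstressed replicates 1 to 3, stress in vehicle fish no longer passed for BMAL1 (0.78) and CLOCK (0.35), nor the drug in unstressed fish for npas2 (-0.81), while the latter passed for CLOCK (-0.87). Without the 5 libraries that stood apart, the larval minus adult stress difference of CLOCK in vehicle fish was -0.87 and passed; that of bmal2, called at -0.64, was 0.16 and changed sign. With no filter the telencephalic drug difference of CLOCK in unstressed fish (0.55) did not pass.

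With the replicate block, the hypothalamic interaction of CLOCK (-1.38) and the larval drug difference of npas2 in unstressed fish (-0.87) no longer passed, BMAL1 for stress in fluoxetine telencephalon (-0.27) newly did, and CLOCK for stress in fluoxetine fish, hypothalamus minus telencephalon, changed sign to 0.016. A block of paired regions, chosen after seeing the data and run for the 3 comparisons of hypothalamus with telencephalon, changed no call of the 3 activators in them. The library number range as a term made BMAL1 for stress in fluoxetine telencephalon (-0.27) pass. With the main within-group axis as a covariate, also chosen after seeing the data, BMAL1 for that comparison (-0.33), larval CLOCK for the drug in unstressed fish (-0.63) and larval npas2 for the drug in stressed fish (-0.66) newly passed. The drug differences in unstressed fish of CLOCK in the hypothalamus (0.61) and telencephalon (0.55) and of npas2 in the hypothalamus (0.77), and the larval stress difference of CLOCK in vehicle fish (0.47), no longer passed, and BMAL1 for the drug in unstressed telencephalon changed sign to 0.0095.

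Values of the other copies, and of the remaining clock genes where called, were recomputed too. Of these, 1953 kept their direction and their side of the threshold, 101 no longer passed, 23 newly passed and 13 changed sign. Of the counts of genes called, over all genes and among the clock genes, 88 moved beyond a fixed limit and 314 did not. The calls and counts given above for those genes are from the main fit. Among the other copies, uncalled values changed sign. For bmal2 (ENSDARG00000041381) they were hypothalamic stress in fluoxetine fish (0.0078; -0.032 with the axis, -0.01345 with only the groups compared), the larval interaction (0.15; -0.45 with the axis, -0.61 without replicates 1 to 3) and the larval drug difference in unstressed fish (-0.66; 0.10 without them). For the second CLOCK entry (ENSDARG00000003631) they were hypothalamic stress in fluoxetine fish (0.012 with DESeq2, 0.0074 with no filter, 0.0026 with the replicate block, 0.013 with RLE scaling, 0.00088 without vehicle stressed replicates 1 and 4) and the larval interaction (0.10 with the axis, 0.21 without replicates 1 to 3). Counts of all genes called moved most in larval heads: 4303 for stress in vehicle fish became 431 with only the groups compared, and 2191 for the drug in unstressed fish became 35. Larval interactions numbered 27, against 1 with the replicate block and 260 with DESeq2. Hypothalamic interactions numbered 94, against 384 without vehicle stressed replicates 1 and 4.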
